A study of Mus musculus with 10 samples.

Results

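The genes described here encode the replacement histones and the linker histone H1.0 of mouse C2C12 cells. The 10 members were chosen by gene symbol from the 35275 genes of the count table: H1f0, H2afx, H2afz, H2afv, H2afj, H2afy, H2afy2, H3f3a, H3f3b and Cenpa. All 10 passed the filter on low counts, which left 13085 genes for testing, and each of the 10 was detected in every library. C2C12 is an established line of mouse muscle precursor cells (myoblasts). The study sequenced RNA from these cells to find genes whose expression changes as myoblasts become myotubes, the multinucleated cells formed by their fusion. The first condition held 5 libraries of cells in growth medium, which was DMEM with 10% fetal bovine serum, sampled just before differentiation was induced. The second held 5 libraries of cells on day 6 after a switch to differentiation medium, which was DMEM with 2% horse serum. Both media contained 1% antibiotics, all libraries came from this 1 line, and no source used here says whether the libraries of a condition came from separate cultures, so the p-values reflect only how these libraries varied, which may be technical variation.

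In most dividing cells the bulk of new histones comes from replication-dependent genes, whose mRNAs lack introns and a poly(A) tail and are made during S phase. Most replacement variants are made from polyadenylated mRNAs outside S phase too. Several are placed by their own chaperones: H3.3 by HIRA or by ATRX with DAXX, H2A.Z by the SRCAP and EP400 complexes, and CENP-A at centromeres by HJURP. H1.0 is a linker histone that binds the DNA between nucleosomes and is known for accumulating in cells that have stopped dividing. In muscle precursor cells, H3.3 at Myod1, H2A.Z at Myog and macroH2A at muscle enhancers have been studied as parts of the myogenic program.

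Among the members, 2 pairs of genes encode the same or nearly the same protein from separate genes, and their coding sequences show that sequencing reads can tell them apart. H3f3a and H3f3b encode the identical H3.3 protein (0 of 136 residues differ) although 95 of their 411 coding bases, stop codon included, differ. H2afz and H2afv encode the H2A.Z proteins H2A.Z.1 and H2A.Z.2, with 3 of 128 residues and 81 of 387 coding bases different. The first 120 coding bases of each are given below, on the strand of the gene, from the GENCODE M21 transcripts on GRCm38, the assembly also named mm10. Capitals mark the bases that differ within a pair. These were 28 of 120 bases with 2 of 40 codons differing in residue for H2afz and H2afv, and 24 of 120 bases with 0 of 40 codons differing in residue for H3f3a and H3f3b.
H2afz (chr3:137864694-137865558, plus strand, spanning an intron): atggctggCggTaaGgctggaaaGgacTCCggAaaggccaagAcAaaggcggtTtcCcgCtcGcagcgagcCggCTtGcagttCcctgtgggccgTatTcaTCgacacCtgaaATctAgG
H2afv (chr11:6433799-6444339, minus strand, spanning introns): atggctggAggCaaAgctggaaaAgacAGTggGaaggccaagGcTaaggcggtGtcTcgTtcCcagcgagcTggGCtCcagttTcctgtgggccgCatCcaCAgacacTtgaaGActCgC
H3f3a (chr1:180811807-180811926, minus strand): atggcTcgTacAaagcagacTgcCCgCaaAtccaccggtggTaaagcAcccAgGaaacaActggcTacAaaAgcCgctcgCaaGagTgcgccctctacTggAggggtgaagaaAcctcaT
H3f3b (chr11:116023890-116024009, minus strand): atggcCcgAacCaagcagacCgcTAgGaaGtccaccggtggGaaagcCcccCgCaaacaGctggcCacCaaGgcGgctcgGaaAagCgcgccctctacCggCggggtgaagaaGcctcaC

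The counts of a library summed to between 16288532 and 21622527 (median 17889126) before differentiation and between 15367909 and 20509280 (median 16570169) on day 6. The first principal component of log2 CPM (counts per 1000000 of the scaled library total) held 93.6% of the variance and separated the conditions. Within day 6, libraries 1 and 2 stood apart from libraries 3, 4 and 5 on a component that held 55.5% of the variance, so results on the members are also given without these libraries where that changes a call. Of 8 proliferation markers, all 8 were lower on day 6, and their summed level was 2524 to 2652 CPM before and 169 to 245 CPM on day 6. Of 7 myoblast and myotube markers, 6 were higher on day 6 and Myf5 was lower (30.9 to 15.4 CPM). The summed level of these 7 was 930.0 to 1023 CPM before and 9320.1 to 13891 CPM on day 6. For comparison, 40.1% of all genes tested were higher and 39.7% lower. The 5 adipocyte, 4 endothelial and 3 macrophage markers in the table summed to at most 0.242, 1.22 and 3.07 CPM in any library. The 4 neuron markers summed to 272 to 319 CPM before and 10.7 to 17.6 CPM on day 6, nearly all from the tubulin Tubb3 (303 to 14.5 CPM), while Rbfox3 and Snap25 had no count and Syt1 had 20 and 15 counts in all. In bulk RNA, fewer cells that express a gene and less of its RNA per cell cannot be told apart, and this holds for every member below.

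Most variant genes were expressed at a lower level on day 6. By edgeR's quasi-likelihood test with Benjamini-Hochberg adjustment over all genes and a threshold of 0.05, 7 members were lower (H2afx, H2afz, H2afj, H2afy, H2afy2, H3f3b and Cenpa), 2 were higher (H1f0 and H3f3a) and 1, H2afv, was not called. Of all genes tested, 39.7% were lower and 40.1% were higher, 79.8% in either direction. Changes of more than 1 log2 were found in 6 members, all lower, against 14.7% of all genes lower and 18.1% higher by that much. The median log2 fold change over the members was -1.20, beside 0.01 over all genes tested. All 5 day 6 libraries lay below all 5 earlier libraries for 6 members and above them for 1 member, H1f0, while 34.8% of all genes lay wholly below and 34.3% wholly above, 69.1% in all.

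**Figure D1:**
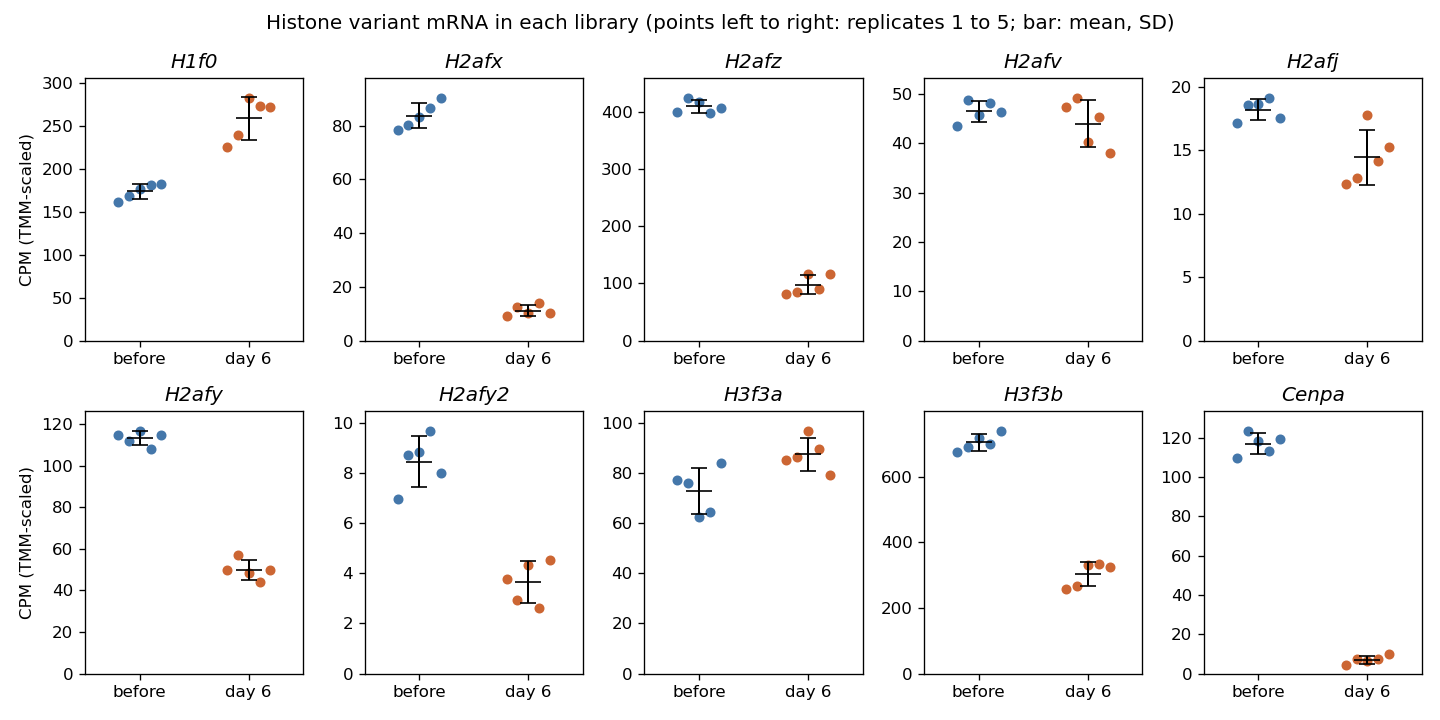
Level of each of the 10 genes in CPM, with a linear axis from 0 in each panel, in 5 libraries before differentiation (blue) and 5 on day 6 (orange); points from left to right are replicates 1 to 5, and the bars give the mean and SD. H1f0 rose from 174 to 259 CPM with no overlap, the 2 groups of H2afv overlap, and Cenpa fell from 117 to 7.08 CPM.

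**Figure D2:**
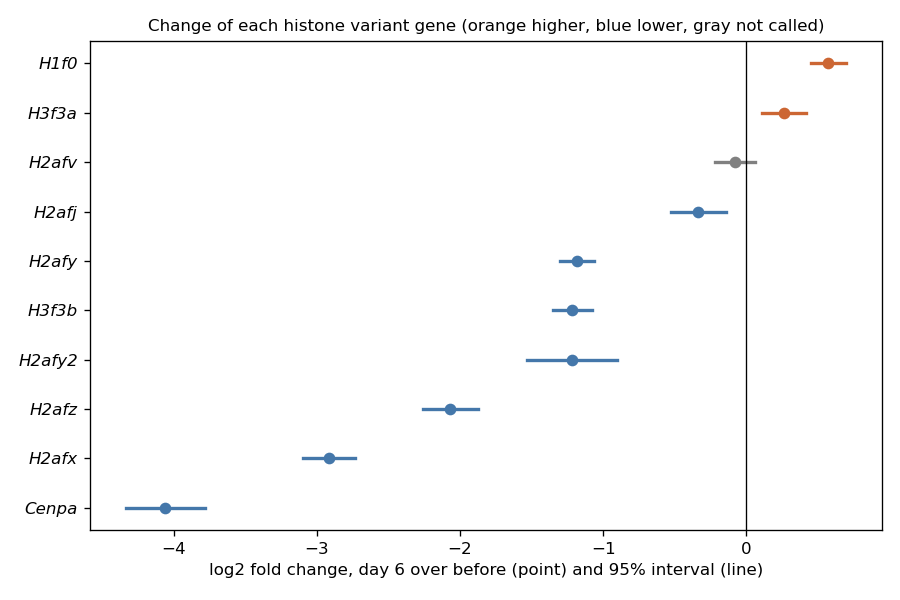
Log2 fold change of each gene on day 6 over before (points) with its 95% interval (lines), from the edgeR fit. Values run from -4.06 for Cenpa to 0.57 for H1f0, and only the interval of H2afv includes 0.

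H1f0 (ENSMUSG00000096210, chr15:79028212-79030498), the gene of H1.0, was the member with the highest fold change. Its level was 161, 169, 176, 181 and 183 CPM in replicates 1 to 5 before differentiation, and 225, 239.8, 283, 274 and 272 CPM on day 6. All day 6 libraries were above all earlier ones, and replicates 1 and 2 of day 6 were below replicates 3, 4 and 5. The mean went from 174 ± 8.94 to 259 ± 24.9 CPM (SD, n = 5 each), a log2 fold change of 0.57 (SE 0.06, adjusted p = 1.45e-07 by edgeR's quasi-likelihood test). Without day 6 replicates 1 and 2 the log2 fold change was 0.68, and without replicates 3, 4 and 5 it was 0.46.

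H1f0 was not the only linker histone that rose. Of 6 other linker histone genes, 4 passed the filter, and of these Hist1h1c was higher while Hist1h1d, Hist1h1e and H1fx were lower (Hist1h1e lost its call, at -0.72 in place of -1.38 log2, without replicates 2 and 3 before differentiation). Of all genes tested, 40.1% were higher and 39.7% lower. Hist1h1c, which encodes H1.2 and has both a stem-loop and a polyadenylated mRNA form, rose from 12.2 ± 1.62 to 136 ± 20.7 CPM (log2 fold change 3.48, SE 0.12, adjusted p = 1.22e-11 by edgeR). Counted per kb of gene length, the summed level of the 7 linker histone genes was 99.3 before and 205 CPM per kb on day 6. H1f0 made up 76.7% of that sum before (71.7% to 80.3% over libraries) and 55.3% on day 6 (53.4% to 57.6%), whereas Hist1h1c made up 7.86% and 42.3%. The level of H1f0 thus rose while its share of the counted linker histone mRNA fell, with no overlap between the conditions for either. Replication-dependent mRNAs without a poly(A) tail are counted or missed depending on how RNA was selected, which is not given in the sources used here. Before differentiation, Hist1h1a, Hist1h1b, Hist1h1d and Hist1h1e had means of 0.654, 1.05, 2.05 and 3.66 CPM. The shares, and the rise of Hist1h1c, therefore describe counted mRNA and may not hold for all linker histone mRNA.

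H2afx (ENSMUSG00000049932, chr9:44334694-44336077) encodes H2A.X, which is phosphorylated around DNA breaks. Its level was 78.5, 80.2, 83.2, 86.6 and 90.4 CPM before and 9.05, 12.5, 10.1, 13.8 and 10.1 CPM on day 6. Every day 6 library was below every earlier one, and day 6 replicates 1 and 2 did not stand apart from the other 3 as they did for H1f0. The mean fell from 83.8 ± 4.80 to 11.1 ± 1.96 CPM (SD, n = 5 each), a log2 fold change of -2.91 (SE 0.09, adjusted p = 6.49e-15 by edgeR), or 7.54-fold lower. Of the 50-base windows of the whole H2afx transcript, 9.66% occur in transcripts of other genes, among them Gm44335 and replication-dependent H2A genes. How RNA was selected is not given in the sources used here. Any H2afx mRNA without a poly(A) tail may have been missed, so these levels may not cover all H2afx mRNA.

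Of 12 genes that act on H2A.X or read its phosphorylation, 9 were lower, 2 were higher and 1 (Rnf8) was not called. Among all genes tested, 39.7% were lower and 40.1% higher. The list had a median log2 fold change of -0.77. Baz1b, whose product phosphorylates H2A.X on a tyrosine and which had the highest level of the list, went from 364 to 172 CPM (log2 fold change -1.08). Brca1, a repair protein that gathers at H2A.X-marked breaks, went from 74.1 to 4.66 CPM (log2 fold change -3.97). The 2 that rose were Prkdc, a kinase of H2A.X (0.51), and Trp53bp1, which binds chromatin next to breaks (0.19). The listed values are log2 fold changes whose adjusted p from edgeR ran up to 0.00143 among these 4 genes.

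H2afz (ENSMUSG00000037894, chr3:137864487-137866922) and H2afv (ENSMUSG00000041126, chr11:6427229-6444443) both encode H2A.Z, a variant found at promoters and enhancers, and they did not move together. H2afz had 401, 425, 418, 399 and 407 CPM before and 81.3, 84.6, 116, 90.6 and 117 CPM on day 6. Every day 6 library was below every earlier one, and day 6 replicates 3 and 5 were above replicates 1, 2 and 4. Its mean fell from 409.7 ± 11.1 to 97.9 ± 17.3 CPM (SD, n = 5 each), a log2 fold change of -2.07 (SE 0.10, adjusted p = 2.61e-10 by edgeR).

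H2afv had 43.5, 48.7, 45.7, 48.2 and 46.3 CPM before and 47.3, 49.2, 40.2, 45.2 and 38.0 CPM on day 6. These groups overlapped, with day 6 replicate 2 above and replicates 3 and 5 below every earlier library. The means were 46.5 ± 2.08 and 44.0 ± 4.73 CPM (SD, n = 5 each), and the log2 fold change was -0.08, with a 95% interval from -0.22 to 0.06 (adjusted p = 0.327 by edgeR). Without day 6 replicates 1 and 2 it passed the threshold at -0.16 (adjusted p = 0.0355), and without replicates 3, 4 and 5 its sign turned, to 0.10 (adjusted p = 0.224).

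H2afv made up a larger share of H2A.Z mRNA on day 6. The ratio of H2afv to H2afz per kb of gene length was 0.0711, 0.0751, 0.0717, 0.0791 and 0.0745 before and 0.381, 0.381, 0.226, 0.327 and 0.213 on day 6. All 5 later ratios were above all earlier ones, and those of day 6 replicates 1 and 2 were the highest. The geometric mean went from 0.0742 to 0.297, a log2 change of 2.00, and a two-sided exact permutation test gave p = 0.00794, the smallest that 5 against 5 allows (0.0119 adjusted over 3 ratios). The sum of both genes fell from 412 to 118 CPM per kb, and the share of H2afv in it went from 6.91% (6.64% to 7.33%) to 23.2% (17.6% to 27.6%). Of the 50-base windows of H2afz, 69.6% also occur in other transcripts of the annotation, most of them processed pseudogenes, against 0% for H2afv. Only uniquely mapped reads were counted, so the level of H2afz, and with it the ratio, may be misstated in both conditions.

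**Figure D3:**
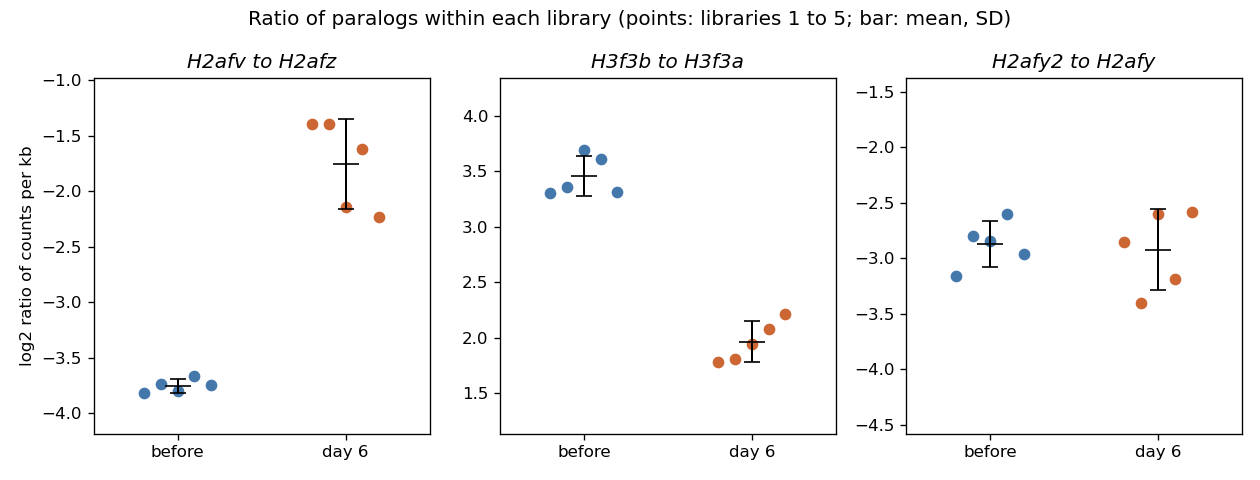
Log2 ratio of counts per kb between the genes of each pair, in each library (points, replicates 1 to 5 from left to right), with mean and SD; the axes differ in position but not in length. The ratio of H2afv to H2afz rose by 2.00, that of H3f3b to H3f3a changed by -1.49, and that of H2afy2 to H2afy overlapped between the conditions.

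Among 18 genes of the complexes that exchange H2A.Z, 15 were lower, 2 (Epc1 and Mbtd1) were higher and 1 (Ino80) was not called. Among all genes tested, 39.7% were lower and 40.1% higher. The median log2 fold change of the 18 genes was -0.34. Beside 14.7% of all genes tested, 4 of the 18 fell by more than 1 log2. They were Anp32e, the chaperone that removes H2A.Z (279 to 111 CPM, log2 fold change -1.33), Ruvbl2, an ATPase of both SRCAP and EP400 complexes (-1.86), its partner Ruvbl1 (-1.43), and the actin-related subunit Actl6a (-1.27). Trrap, a large scaffold subunit with the highest mean level of the list, went from 237 to 168 CPM (-0.50). The catalytic subunits moved less: Srcap had a log2 fold change of -0.30 and Ep400 of -0.34. All of these values passed edgeR's test, the largest adjusted p being 0.00103 for Srcap, whose libraries overlapped between the conditions. Without day 6 replicates 3, 4 and 5, Srcap (-0.20, adjusted p = 0.0533), Znhit1, Dmap1 and Kat5 were not called.

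The upstream sequences of H2afz and H2afv are shown because these paralogs moved apart. RefSeq promoter windows (GRCm38.p6), from 250 bases before to 50 bases after the start of transcription, were found for 9 of the 10 members, and the missing one is H2afx. The 250 bases before the start are printed on the strand of the gene, with CCAAT, the box bound by NF-Y, its reverse complement ATTGG, and the reverse complement TTCAAA of the CHR element TTTGAA in capitals.
H2afz (chr3:137864237-137864486, plus strand): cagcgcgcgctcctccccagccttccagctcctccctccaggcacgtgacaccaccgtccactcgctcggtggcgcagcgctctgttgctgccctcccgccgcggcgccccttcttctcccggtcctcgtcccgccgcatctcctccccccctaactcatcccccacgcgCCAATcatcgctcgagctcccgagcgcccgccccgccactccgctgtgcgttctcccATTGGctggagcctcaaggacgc
H2afv (chr11:6444444-6444693, minus strand): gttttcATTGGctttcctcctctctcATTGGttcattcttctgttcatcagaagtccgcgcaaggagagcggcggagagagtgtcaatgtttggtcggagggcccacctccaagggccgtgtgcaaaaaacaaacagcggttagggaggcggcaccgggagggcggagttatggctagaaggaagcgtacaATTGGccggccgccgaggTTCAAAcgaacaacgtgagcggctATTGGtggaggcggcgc
Counting the base before the start as -1, CCAAT began at -80 and -23 for H2afz, with another copy at 23 beyond the printed bases, and at -244, -224, -59 and -17 for H2afv, which also had the CHR letters at -41. Over both strands, CCAAT was found in 7 of the 9 windows (H2afz, H2afv, H2afj, H2afy2, H3f3a, H3f3b and Cenpa) and in 37.4% of 32851 mouse promoter windows. TTTGAA was found in 2 windows (H2afv and Cenpa) against 17.9% of all, the E-box CAGCTG in 1 (H2afj) against 16.3%, and the E2F-like TTTNNCGC in 0 against 5.17%. None of these motifs overlapped another in the printed sequences, and H1f0 and H2afy had none of the 4. These are matches of letters only, and any part of the motifs in the changes was not tested.

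H2afj (ENSMUSG00000060032, chr6:136808244-136810070) encodes H2A.J, a variant that differs from replication-dependent H2A mainly at its tail and is known to accumulate in senescent human fibroblasts. It had 17.1, 18.6, 18.6, 19.1 and 17.5 CPM before and 12.3, 12.8, 17.7, 14.2 and 15.2 CPM on day 6. The groups overlapped by 1 library, since day 6 replicate 3 lay within the earlier range and the other 4 lay below it. The mean went from 18.2 ± 0.837 to 14.4 ± 2.17 CPM (SD, n = 5 each), a log2 fold change of -0.34 (SE 0.10, adjusted p = 0.00471 by edgeR). Without day 6 replicates 1 and 2 the value was -0.20 and did not pass (adjusted p = 0.0712).

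H2afy (ENSMUSG00000015937, chr13:56073619-56136361) and H2afy2 (ENSMUSG00000020086, chr10:61738665-61784147) encode macroH2A1 and macroH2A2, which carry a large macro domain after the histone fold and are linked to silent chromatin. H2afy had 115, 112, 117, 108 and 115 CPM before and 50.004, 57.2, 48.3, 44.1 and 49.8 CPM on day 6, with no overlap (113 ± 3.40 to 49.9 ± 4.71 CPM). Its log2 fold change was -1.18 (SE 0.06, adjusted p = 3.42e-12 by edgeR). The counts are per gene, so the splice forms macroH2A1.1 and macroH2A1.2 were not separated.

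H2afy2 was the least abundant member, with 6.96, 8.73, 8.83, 9.68 and 8.0 CPM before and 3.76, 2.94, 4.33, 2.62 and 4.52 CPM on day 6. These groups did not overlap either, and the log2 fold change was -1.22 (SE 0.16, adjusted p = 1.40e-06 by edgeR), from 8.44 ± 1.02 to 3.63 ± 0.834 CPM. Its ratio to H2afy per kb was 0.137 before and 0.132 on day 6, a log2 change of -0.05 beside SDs of 0.21 and 0.36 (two-sided exact permutation test, p = 0.762, n = 5 each). The sum of both genes fell from 32.1 to 14.1 CPM per kb, of which H2afy2 made up 12.1% and 11.9%. The table gives H2afy the length of a transcript with a retained intron, 4018 bases, and with the longest coding transcript of 2046 bases the sum was 59.3 and 26.1 CPM per kb and the share of H2afy2 was 6.55% and 6.43%. The length does not alter the change of a ratio between the conditions. H2afy2 overlaps Aifm2 on the opposite strand, and whether counting used strand is not given in the sources used here.

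The 6 H2A variant genes together fell from 514 CPM per kb (499 to 527) to 149 CPM per kb (132 to 165). H2afz held 74.5% of the sum before and 61.3% on day 6, and H2afx 11.8% and 5.46%. H2afv rose from 5.53% to 18.4%, H2afj from 1.94% to 5.31% and H2afy from 5.49% to 8.43%, each with no overlap between the libraries of the conditions. With lengths of coding transcripts the share of H2afy was 10.2% and 15.3%, and the sum was 541 and 160.5 CPM per kb. Shares sum to a whole, so the fall of H2afz by itself raises the others.

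**Figure D4:**
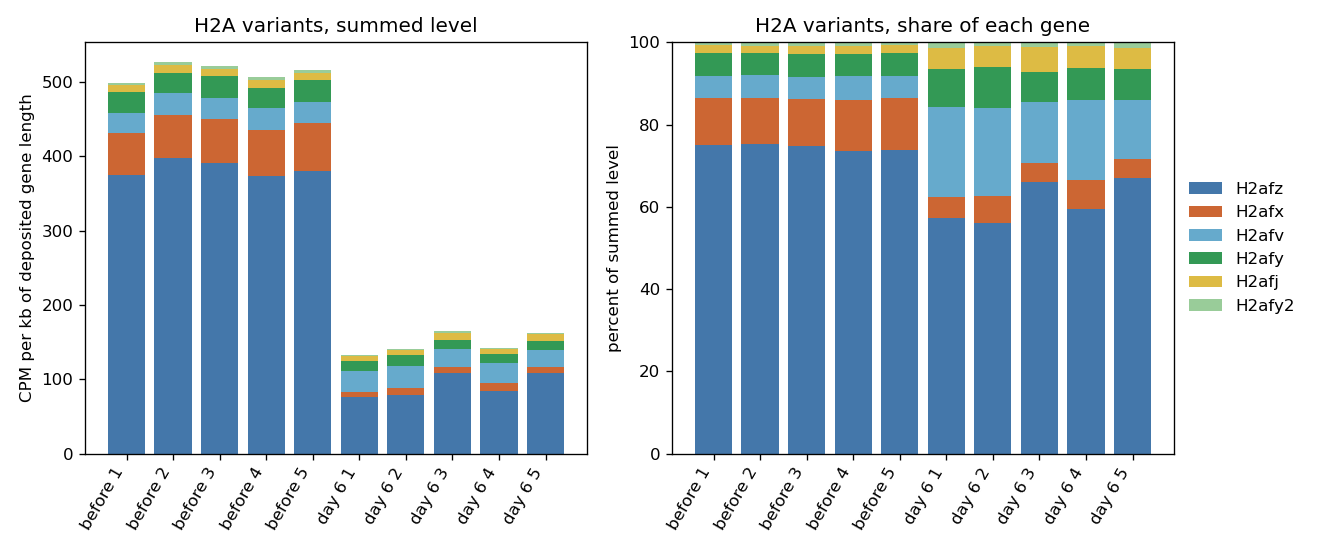
Summed level of the 6 H2A variant genes in CPM per kb of deposited gene length (left) and the percent of that sum from each gene (right), 1 bar for each library. The sum fell from 514 to 149 CPM per kb, and the share of H2afz went from 74.5% to 61.3% as that of H2afv went from 5.53% to 18.4%.

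H3f3a (ENSMUSG00000060743, chr1:180800832-180813943) and H3f3b (ENSMUSG00000016559, chr11:116021912-116027962) moved in opposite directions although they encode the same H3.3 protein. H3f3b, the member with the most counts, had 675, 692, 717, 699 and 740.1 CPM before and 259, 268, 330.3, 335 and 325 CPM on day 6. No libraries overlapped, and day 6 replicates 1 and 2 were below replicates 3, 4 and 5. The mean fell from 705 ± 25.0 to 303 ± 36.8 CPM (SD, n = 5 each), a log2 fold change of -1.22 (SE 0.07, adjusted p = 3.27e-11 by edgeR).

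H3f3a had 77.2, 76.1, 62.6, 64.7 and 84.2 CPM before and 85.2, 86.3, 96.9, 89.7 and 79.3 CPM on day 6. Of the later libraries, 4 were above every earlier one and replicate 5 was not. The mean went from 72.9 ± 9.08 to 87.5 ± 6.48 CPM (SD, n = 5 each), a log2 fold change of 0.26 (SE 0.08, adjusted p = 0.00542 by edgeR). Of the 50-base windows of H3f3a, 30.3% occur in other transcripts, among them pseudogenes of H3.3, and H3f3aos and Gm17275 lie on its opposite strand.

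The ratio of H3f3b to H3f3a per kb was 9.89, 10.3, 12.9, 12.2 and 9.94 before and 3.43, 3.51, 3.85, 4.21 and 4.64 on day 6. The 2 sets did not overlap, and H3f3b had the higher level in all 10 libraries. The geometric mean fell from 10.98 to 3.90, a log2 change of -1.49, with p = 0.00794 in a two-sided exact permutation test (0.0119 adjusted over 3 ratios). Their sum, the mRNA for H3.3, went from 306 CPM per kb (296 to 324) to 152 CPM per kb (133 to 165), and the share of H3f3a from 8.39% to 20.4%. Windows shared with other transcripts made up 30.3% for H3f3a and 8.40% for H3f3b. Since only uniquely mapped reads were counted, this ratio and share may be misstated in both conditions.

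Of 8 genes that deposit H3.3, 5 were lower and 3 were higher, beside 39.7% lower and 40.1% higher among all genes tested. The median log2 fold change of these 8 genes was -0.38. The higher count was 2 in 9 of 21 refits, in each of which Atrx was no longer called. In the HIRA complex, Hira itself fell (12.6 to 5.61 CPM, log2 fold change -1.16) and so did Cabin1 (-0.56), whereas its subunits Ubn1 (0.70) and Ubn2 (0.43) rose. In the other pathway, Atrx, which had the highest level of the list, went from 149 to 167 CPM (0.16, adjusted p = 0.0364 by edgeR, libraries overlapping, and 0.0600 with the replicate number as a block) and its partner Daxx fell (-0.23). The largest change was in Asf1b, the H3-H4 chaperone of dividing cells (83.6 to 8.24 CPM, -3.33), while its paralog Asf1a changed less (-0.53).

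Cenpa (ENSMUSG00000029177, chr5:30666777-30674827), the gene of the H3 variant that marks centromeres, fell by the largest factor among the members. It had 109.9, 124, 118, 113 and 119 CPM before and 4.40, 7.58, 6.16, 7.51 and 9.75 CPM on day 6. The groups were separated by a wide gap, and day 6 replicate 1 was the lowest library. The mean fell from 117 ± 5.32 to 7.08 ± 1.97 CPM (SD, n = 5 each), a log2 fold change of -4.06 (SE 0.14, adjusted p = 1.75e-11 by edgeR), or 16.7-fold lower. CENP-A shares 42.7% of aligned residues with H3.3, and no 50-base window of Cenpa occurs in another gene.

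All 6 genes that place CENP-A or hold on to it were lower on day 6, beside 39.7% of all genes tested. Their median log2 fold change was -3.02. The chaperone Hjurp fell from 194 to 45.3 CPM (log2 fold change -2.09). Mis18a and Oip5, whose products help to mark centromeres for loading, fell further, with log2 fold changes of -2.73 and -3.31. Of the proteins that bind CENP-A nucleosomes, Cenpn had a log2 fold change of -3.62 and Cenpc1 of -0.87. Cenpa and its depositors fell beside the proliferation markers, whose median log2 fold change was -4.06, and the part of these markers in the result was not tested.

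Genes that handle newly made histones in S phase were lower as well, beside 39.7% lower and 40.1% higher among all genes tested. All 10 replication-coupled chaperone genes fell (median log2 fold change -1.44; Nap1l4 was not called without day 6 replicate 5, nor without replicates 3, 4 and 5), from Nap1l1, the most abundant at 850.0 CPM before and 269 CPM on day 6 (-1.66), to Chaf1a, the large subunit of chromatin assembly factor 1, with the largest change (91.4 to 7.71 CPM, -3.56). Of 7 genes that process replication-dependent histone mRNA, 6 fell and Lsm10 was not called (median -1.26), and Slbp, the stem-loop binding protein, fell from 82.8 to 17.1 CPM (-2.27), and Eri1, an exonuclease that trims histone mRNA ends and the most abundant of the list, from 87.1 to 34.4 CPM (-1.34). Among 60 replication-dependent core histone genes only 13 passed the filter, with 9 higher, 2 lower and 2 not called (Hist1h4i lost its call in 5 and Hist1h2be in 9 of 20 refits). With no filter, 23 of the 55 that had any count were lower, beside 5543 of 21797 genes in all. The count over the genes that passed thus does not describe the family. Because RNA selection is not given, mRNAs without a poly(A) tail may have been missed. The changes of these genes may therefore not hold for all of their mRNA. Hist1h2bc had the highest level of those that passed (3.98 to 30.8 CPM, log2 fold change 2.94), and Hist1h4k the largest change (1.25 to 0.0556 CPM, -4.29).

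**Figure D5:**
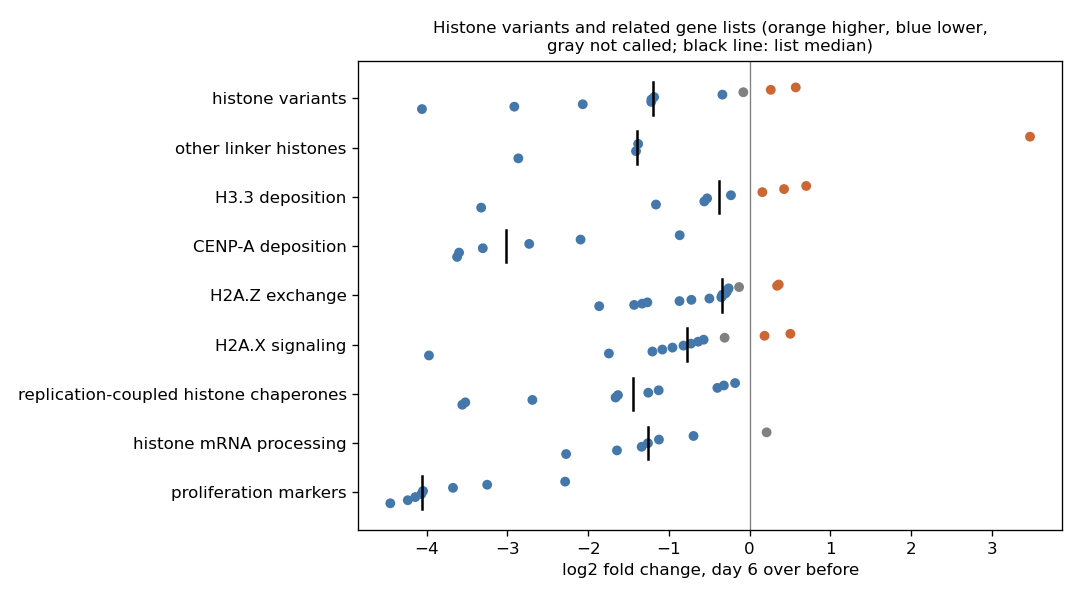
Log2 fold change on day 6 over before for the 10 members and the tested genes of 8 related lists (1 point for each gene), with the median of each list as a black line. The median was -1.20 for the histone variants, -0.34 for H2A.Z exchange, -3.02 for CENP-A deposition and -4.06 for the proliferation markers. Replication-dependent core histones are not shown, and the median of the 13 that were tested was 1.68.

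Levels per kb put the members in a different order in the 2 conditions. Before differentiation the order was H2afz (383 CPM per kb), H3f3b (280.2), Cenpa (86.3), H1f0 (76.1), H2afx (60.5), H2afv (28.5), H2afy (28.2), H3f3a (25.7), H2afj (9.96) and H2afy2 (3.88). Ranges over libraries overlapped only between H2afv and H2afy and between H2afy and H3f3a among neighbors in that order. On day 6 it was H3f3b (121), H1f0 (113), H2afz (91.6), H3f3a (30.8), H2afv (26.9), H2afy (12.4), H2afx (8.03), H2afj (7.90), Cenpa (5.23) and H2afy2 (1.67). There, H3f3b, H1f0 and H2afz all overlapped one another, H3f3a overlapped H2afv, and H2afx, H2afj and Cenpa all overlapped one another. Cenpa went from rank 3 to rank 9, and H1f0 from rank 4 to rank 2. With lengths of coding transcripts H1f0 (84.7 CPM per kb) was rank 3 and Cenpa (79.7) rank 4 before, H2afy was rank 6 before (55.4, and 24.4 on day 6), and H1f0 was rank 1 on day 6 (126).

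The genes whose log2 CPM followed each member most closely over the 10 libraries are given as a description, since libraries of 2 conditions make any gene that moved correlate with others that moved. For H1f0 they were Hid1 (Pearson r = 0.995) and Lipa (0.994), for H2afx Srm (1.00), for H2afz Nsf and 1110038B12Rik (both 0.998), and for Cenpa Kifc1 and Kcnn4 (both 0.999). For H3f3b they were Igfbp2 and Cers2 (both 0.999), for H2afy 2810417H13Rik (0.999) and Raver1 (0.998), and for H2afy2 Pfdn4 (0.980) and Crk (0.979). The members that moved least had looser matches, Slc37a3 (0.975) and Zfp180 (0.952) for H2afj, mt-Nd4l (0.942) and Rccd1 (0.925) for H3f3a, and Proser2 (0.875) and Hadh (0.873) for H2afv.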

How the data were processed

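RNA of C2C12 cells was sequenced in 10 libraries, 5 for each condition. Conditions and replicate numbers came from the sample labels, and day 6 from the paper. According to the submitters' processing notes and the paper, the authors trimmed reads with Trimmomatic, aligned them with STAR 2.5 to the mm10 genome and used HTSeq 0.6.1 to count the uniquely mapped ones for each gene. The deposited table holds these raw counts, the gene length and an FPKM value that the authors computed from counts, length and library total. The FPKM values were used only for a check that they follow from the counts, and the deposited gene length in bases was used for levels per kb. The labels and the paper name different versions of the library kit.

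Fits used R 4.3.3 with edgeR 4.0.16: filterByExpr by condition (13085 of 35275 genes kept), TMM scaling, and the robust quasi-likelihood test with the condition alone, with Benjamini-Hochberg adjustment across all of these genes and 0.05 as the threshold. Library depth, given with the results, sets the precision, and at these totals a count of 0 over all 10 libraries allows up to 0.0168 CPM (3 counts). Standard errors came from the log2 fold change and the F statistic. Ratios of paralogs were compared by exact permutation tests with SciPy 1.17.1. Alternatives were DESeq2 1.42.0, other scalings, other filters, a replicate block and libraries left out. The length of the coding transcript and leaving out Yam1 and Lars2 were added after seeing the data. All 10 members were named, and from each related list the gene with the highest level and the one with the largest change, with lists of 6 or fewer open to naming whole. A few genes that this rule names are not reported here. Other list genes were named to describe a complex, after their values were seen, and likeness used log2(CPM + 0.5). The members and lists were chosen with earlier results of these data known. The fit was tested on simulated data.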

Additional observations from a re-analysis of the deposited data

How the results depend on the processing

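All 10 histone variants kept the direction and side of the threshold reported above in the 21 refits with another tool, scaling, filter or set of libraries, except H2afv and H2afj. Without day 6 replicates 1 and 2, H2afv passed the threshold (log2 fold change -0.16, adjusted p = 0.0355 by edgeR) and H2afj did not (-0.20, adjusted p = 0.0712), and H2afv was positive in 1 refit (0.10, without day 6 replicates 3, 4 and 5). With a limit of 1 log2, 0 histone variants were higher, and 2370 of all genes were higher and 1925 lower. The same limit left 0 higher and 2 lower for H3.3 deposition, 0 and 4 for H2A.Z exchange, and 0 and 4 for H2A.X signaling. Other scalings moved the median of all genes by at most 0.02 log2, and DESeq2 and no filter, with 21797 genes, by up to 0.08.

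Low counts limited the related lists. Other linker histones counted lower were 5 with DESeq2, with no filter, and without either set of day 6 libraries, and 0 with a filter of at least 5 CPM in 5 libraries. Replication-dependent core histones counted lower were 20 with DESeq2, 23 with no filter, 0 with the stricter filter (1 was higher), 9 without day 6 replicates 1 and 2, 16 without replicates 3, 4 and 5, 4 without replicates 2 and 3 before differentiation, and 2 to 8 with a single library left out. The number of these genes fitted was 13 in the fit reported above, 55 with DESeq2 or no filter and 1 with the stricter filter. DESeq2 may not have given each of them an adjusted p. Of 21797 genes in all, 5437 were lower with DESeq2 and 5543 with no filter. For histone mRNA processing, 1 gene was higher with upper-quartile factors, with the stricter filter, without day 6 replicates 3, 4 and 5, and 0 to 1 with a single library left out.

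The ratio of H2afv to H2afz changed by 1.76 without day 6 replicates 1 and 2, 2.36 without replicates 3, 4 and 5 and 1.99 without replicates 2 and 3 before differentiation, and that of H3f3b to H3f3a by -1.38, -1.66 and -1.44 in turn. The adjusted p-values of these exact permutation tests were 0.0536, 0.143 and 0.0536, from unadjusted values of 0.0357, 0.0952 and 0.0357 that are the smallest those numbers of libraries allow. Deviations of same-numbered libraries correlated at -0.05 to 0.01, and no source used here says whether replicate numbers pair the libraries. With the replicate number as a block, 5165 genes were higher and 5138 lower, the histone variants had the same calls (2 higher, 7 lower), Atrx was not called (0.16, adjusted p = 0.0600) nor was Hist1h2be, and the paralog ratios changed by 2.00 and -1.49 (exact paired permutation, adjusted p = 0.0938, with 0.0625 the smallest p before adjustment).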

Other observations

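Histone variants of the germline were nearly absent. Of 10 such genes, 0 passed the filter and 7 had no count in any library, which allows a level of up to 0.0168 CPM each (3 counts over all 10 libraries, counting error only). Hils1, a linker histone of spermatids, had 9 counts before differentiation and 51 on day 6, Hist1h1t, the testis H1, had 1 and 3, and H1foo, the oocyte H1, had 0 and 1. The processed pseudogenes of H3.3 had few unique counts, 173 and 151 for H3f3a-ps1, 28 and 26 for H3f3a-ps2 and 43 and 34 for H3f3c, each summed over the 5 libraries of a condition, beside 6636 and 7627 for H3f3a itself. No library lay far enough from the others of its condition to pass Dixon's test in the 26 sets of 5 values examined for the members and their ratios.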
